A study of Homo sapiens with 6 samples.

Results

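The genes described here are the small nucleolar RNA (snoRNA) and small Cajal body RNA (scaRNA) genes that were detected in SiHa cells, an established human line that was derived from a cervical squamous cell carcinoma. With Lipofectamine 3000 the cells received either GV230-BRCA1, a plasmid that carries BRCA1 (OV-BRCA1 group, 3 samples), or the empty plasmid GV230 (NC group, 3 samples). Vector and reagent were thus common to both groups, and RNA was taken 48 h later. The model is 1 cell line with a transient plasmid, and the study's methods call the samples of a group biological replicates without saying whether they were separate cultures, so p-values measure the spread between these samples. The values are FPKM, the fragments on a transcript per kilobase of its length and per M mapped fragments of the sample, and a gene's value is the sum over its transcripts. The genes were chosen by their type in GENCODE 29 (snoRNA or scaRNA) and by their measured FPKM, which had to reach 0.5 in 3 or more of the 6 samples, whatever their group. This held for 137 of 992 annotated snoRNA and scaRNA genes, among 58174 genes in all. By type, 133 members were snoRNA genes and 4 were scaRNA genes. By name, 61 belonged to box C/D, 47 to box H/ACA and 5 to the scaRNAs, and 24 had another name or only an identifier.

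Box C/D snoRNAs guide the 2′-O-methylation of ribosomal RNA, and box H/ACA snoRNAs guide the conversion of uridine to pseudouridine. The scaRNAs do the same for the RNAs of the spliceosome in Cajal bodies. In human cells most of these RNAs lie in introns of host genes and are trimmed out of the spliced intron, so that 1 primary transcript yields both a host RNA and a snoRNA. A few, among them U3 (the SNORD3 genes), have promoters of their own. U3 does not guide a modification but takes part in the cleavage of the ribosomal RNA precursor. Mature snoRNAs carry no poly(A) tail, and the libraries were made from RNA purified on mRNA capture beads. In these bulk samples, fewer cells with a given RNA and less of it per cell cannot be told apart.

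The sequences of 8 members whose values differed between the groups are shown first. Some members past the test are not among them. The SNORD3A transcript shown was at or near 0 FPKM in the NC samples. All 8 are GENCODE 29 transcripts on GRCh38, read 5′ to 3′. Capitals mark the C box (TGATGA within 20 bases of the 5′ end) and the D box (CTGA within 20 bases of the 3′ end) in box C/D members. In box H/ACA members, capitals mark ACA when 3 to 5 bases follow it at the 3′ end. The box C/D set holds U3 from SNORD3A (chr17:19188016-19188233, plus strand), SNORD17 (chr20:17962710-17962946, minus strand), SNORD100 (chr6:132816802-132816877, plus strand), SNORD12B (chr20:49280319-49280409, plus strand) and SNORD59A (chr12:56645027-56645101, minus strand).
SNORD3A: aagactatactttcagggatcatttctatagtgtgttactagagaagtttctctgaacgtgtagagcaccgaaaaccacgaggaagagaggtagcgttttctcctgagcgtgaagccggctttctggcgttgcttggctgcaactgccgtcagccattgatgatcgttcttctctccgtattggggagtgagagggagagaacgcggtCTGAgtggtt
SNORD17: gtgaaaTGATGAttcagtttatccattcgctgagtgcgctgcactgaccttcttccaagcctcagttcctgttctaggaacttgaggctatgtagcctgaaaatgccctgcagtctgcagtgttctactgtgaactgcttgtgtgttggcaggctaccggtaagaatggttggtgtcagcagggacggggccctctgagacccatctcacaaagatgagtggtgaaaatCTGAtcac
SNORD100: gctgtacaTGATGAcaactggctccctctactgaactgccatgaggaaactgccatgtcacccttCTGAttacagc
SNORD12B: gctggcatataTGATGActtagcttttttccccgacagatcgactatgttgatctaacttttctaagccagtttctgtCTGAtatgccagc
SNORD59A: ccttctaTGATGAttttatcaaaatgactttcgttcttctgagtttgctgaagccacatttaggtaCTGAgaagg

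The box H/ACA set holds SNORA73B (chr1:28508559-28508762, plus strand), SNORA33 (chr6:132817219-132817348, plus strand) and SNORA8 (chr11:93732361-93732499, minus strand). SNORA33 ends in aca itself and had none at that position, so it has no capitals.
SNORA73B: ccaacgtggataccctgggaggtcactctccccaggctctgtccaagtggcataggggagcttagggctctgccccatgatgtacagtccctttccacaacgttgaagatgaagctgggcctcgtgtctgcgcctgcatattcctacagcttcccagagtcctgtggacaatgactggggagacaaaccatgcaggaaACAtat
SNORA33: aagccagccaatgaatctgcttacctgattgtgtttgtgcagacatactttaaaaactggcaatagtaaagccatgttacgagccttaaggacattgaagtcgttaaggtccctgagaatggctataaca
SNORA8: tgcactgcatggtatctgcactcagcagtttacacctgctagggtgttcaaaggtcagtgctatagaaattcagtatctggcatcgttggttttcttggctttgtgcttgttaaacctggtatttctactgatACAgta

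On the transcribed strand, the C box letters were found in 32 of the 61 box C/D members (52.5%), in 163 of 226 box C/D genes that were not detected (72.1%) and in 24.8% of all 992 annotated genes. The D box letters were found in 56 of the 61 box C/D members (91.8%), in 211 of the 226 not detected (93.4%) and in 47.6% of all annotated genes. These counts used the transcript closest in length to the span of each gene, so SNORD3A, SNORD3B-1, SNORD3B-2 and SNORD3C, whose transcripts of that kind are longer than the U3 copy, were counted as without a D box. ACA at its position was found in 36 of the 47 box H/ACA members (76.6%), in 73 of 99 box H/ACA genes that were not detected (73.7%) and in 32.3% of all annotated genes. The 218-base U3 of SNORD3A shown above held the D box letters but not TGATGA within its first 20 bases.

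The members were short and shallowly covered. Their gene lengths ran from 64 to 791 bases with a median of 130, and their mean FPKM ran from 0.365 to 34.8 with a median of 2.18. Depth was estimated at 14.31 to 16.64 M fragments per OV-BRCA1 sample and at 16.11 to 19.91 M per NC sample. At these depths 1 fragment on 130 bases was worth 0.386 to 0.538 FPKM, so a gene at the threshold held about 1 fragment. Of the 137 members, 109 had fewer than 10 estimated fragments on average, and 51 had less than 1 in their lowest sample. Just inside the threshold lay ENSG00000212432 (0.508 FPKM in the third highest sample), SCARNA8 (0.528), SNORA15 (0.529), SNORD1B (0.529) and SNORA60 (0.531). Just outside lay ENSG00000251775 (0.496), SNORA69 (0.493), SNORD11B (0.489), SNORA22B (0.483) and SNORA59B (0.466).

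Detected genes lay in more strongly expressed hosts. A host was the gene on the same strand whose span held the whole snoRNA or scaRNA gene. Of the members, 114 had a host (82 different hosts) and 23 had none. The median of the hosts' mean FPKM was 51.7 for these 114 members and 2.71 for 468 genes with a host that were not detected. Of the hosts, 15 were ribosomal protein genes, 49 other protein-coding genes and 18 long noncoding genes. By position, 83 members had no base in an exon of another gene on their strand, 17 lay partly and 37 wholly within such an exon. Reads on these last members can be counted for the snoRNA or for the transcript around it.

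Most members did not pass the test between the groups. The summed FPKM of the members was 551 ± 18.4 with BRCA1 plasmid and 502 ± 34.2 with empty plasmid (SD, n = 3 each). The OV-BRCA1 samples were at 538, 543 and 572, all above the NC samples at 500, 537 and 469 (exact two-sided permutation test, p = 0.1, the smallest that 3 against 3 samples allow). The median member FPKM was 2.01 ± 0.0631 and 2.06 ± 0.0551 in the same order (SD, n = 3 each), and these groups overlapped.

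Genes were compared with limma on log2(FPKM + 1), a scale that understates the change of low genes, and p-values were adjusted by Benjamini-Hochberg over the 16321 genes that passed the same filter. "Rose" and "fell" mean an adjusted p below 0.05, and the criterion adds an absolute log2 fold change above 1. Past the criterion were 5 members with higher and 1 with lower expression in the OV-BRCA1 group, where 3.99% of all genes tested were past it (2.89% higher and 1.1% lower). By adjusted p alone, 12 members rose and 7 fell, which is 13.9% of the members, where 35.3% of all genes tested did so (16.4% rose and 18.9% fell). Among the 8408 genes with a mean FPKM in the central range of the members, 0.638 to 9.14, that share was 29.1% (14.2% rose and 15% fell). These genes were matched by FPKM alone, not by length or fragments. Their median standard error was 0.124, against 0.223 for the members. The groups did not overlap for 29 members (21.2%), 17 with the OV-BRCA1 samples above and 12 with them below, where 50.8% of all genes tested did not overlap (23.4% above and 27.4% below). Among the 28 members with 10 or more estimated fragments on average, a limit chosen after seeing the data, 7 rose and none fell (limma; 9 of the 28 had an unadjusted p below 0.05). The median log2 fold change was -0.04 over the members and -0.04 over all genes tested. By class, 8 box C/D members rose and 2 fell, 3 box H/ACA members rose and 2 fell, and none of the 5 scaRNAs passed (limma, adjusted p at least 0.05; 1 had an unadjusted p below 0.05). Of the 8 box C/D risers, 4 were U3 genes, whose near-identical copies can share reads, and 2 of these were past the criterion. SCARNA22 passed without OV-BRCA1 replicate 1 and SCARNA12 without OV-BRCA1 replicate 3, at log2 fold changes of -1.05 and -0.50 (limma adjusted p = 0.00896 and 0.0404). A total of 29 members had an unadjusted p below 0.05. SNORD14C, SNORA15 and ENSG00000238840 reached 0.5 FPKM in the NC group alone, so they had to lie lower, and they stand in these counts. Over the 134 members that reached it in both groups, 12 rose and 4 fell, and the groups did not overlap for 26.

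**Figure D1:**
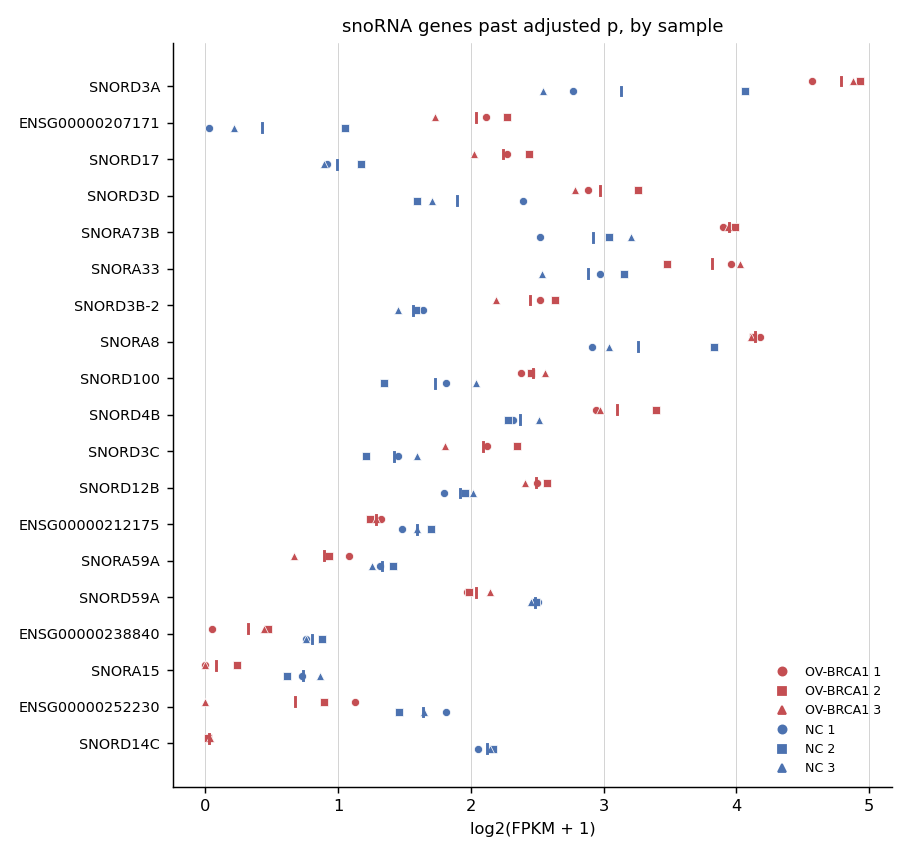
The 19 members past an adjusted p of 0.05, ordered by log2 fold change, with log2(FPKM + 1) on the horizontal axis. Each marker is 1 sample (red, OV-BRCA1; blue, NC; circle, square and triangle for replicates 1, 2 and 3) and vertical ticks are group means; the groups did not overlap in any of these genes, and SNORD14C was near 0 in all 3 OV-BRCA1 samples.

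Of the 5 U3 genes, which have their own promoters, 4 rose in the OV-BRCA1 group. SNORD3A was at 22.7, 29.4 and 28.3 FPKM in the OV-BRCA1 samples and at 5.81, 15.8 and 4.84 in the NC samples. All OV-BRCA1 samples lay above all NC samples, and NC replicate 2 stood apart from the other NC samples. Its log2 fold change was 1.66 ± 0.39 (SE), with an adjusted p of 0.0193 (limma, Benjamini-Hochberg). SNORD3D was at 6.38, 8.56 and 5.89 FPKM against 4.24, 2.02 and 2.27, a log2 fold change of 1.08 ± 0.24 (SE; limma adjusted p = 0.0153). SNORD3B-2 was at 4.72, 5.21 and 3.56 FPKM against 2.12, 2.01 and 1.74, and it rose by 0.89 ± 0.13 (SE) on the log2 scale (limma adjusted p = 0.00388). In both genes the groups were apart. SNORD3D lies wholly within an exon of AC007952.4, which did not pass the filter. SNORD3C rose by 0.67 ± 0.17, from 1.69 to 3.31 FPKM (limma adjusted p = 0.0245). SNORD3B-1 was at 2.93 ± 1.45 and 2.24 ± 0.575 FPKM (SD, n = 3 each), and its groups overlapped.

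The 5 U3 copies were 98.2% to 100% identical over 217 bases, so the authors' counting could split reads between them, and the sum is the firmer value. The sum was 38.7, 51.7 and 43.1 FPKM in the OV-BRCA1 samples and 15.5, 23.5 and 13.6 in the NC samples. The ratio of the group means was 2.54 (exact two-sided permutation test, p = 0.1, the smallest possible).

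Part of the SNORD3A difference lay in which transcript the fragments were given to. In all OV-BRCA1 samples the larger FPKM stood on the 218-base transcript, at 21.1, 28.3 and 26.1. In NC replicates 1 and 3 that transcript was listed at 0, and the gene's value stood on the 699-base transcript, at 5.81 and 4.84 FPKM. In NC replicate 2 it stood on a 217-base transcript, at 14.4 FPKM. A fragment on the shorter transcripts gives a larger FPKM, so the values were also multiplied by transcript length, which gives fragments per M mapped fragments. On that measure SNORD3A was at 5.70, 6.98 and 7.25 in the OV-BRCA1 samples and at 4.06, 4.07 and 3.38 in the NC samples. The ratio of the means was 1.73, against 3.04 in FPKM. With 1 fixed length per gene, an alternative chosen after seeing the data, the log2 fold change of SNORD3A was 0.74 (limma adjusted p = 0.00374), so it no longer reached the criterion. The sum of the 5 genes was then 9.83, 12.5 and 11.0 fragments per M against 6.29, 6.33 and 5.77, a ratio of 1.81, and the groups did not overlap.

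**Figure D2:**
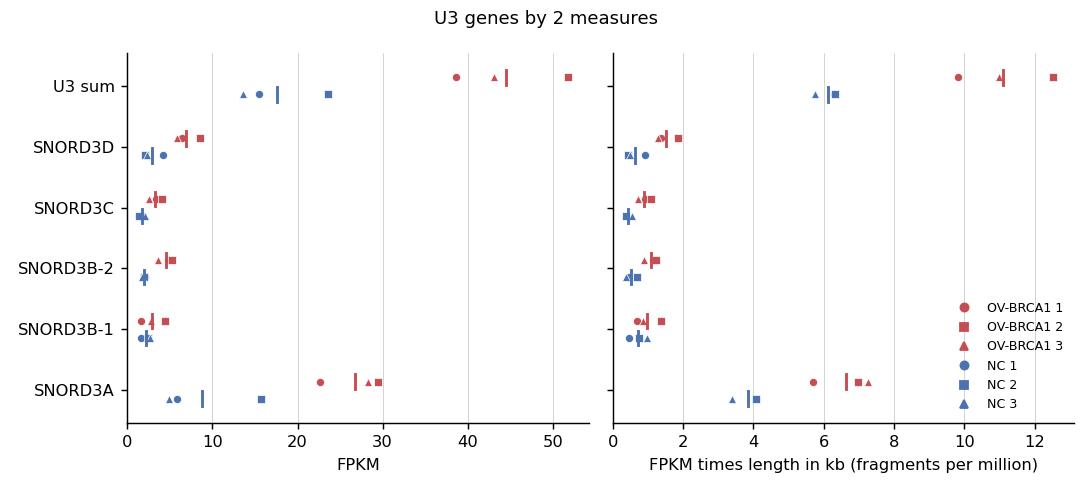
U3 genes and their sum in FPKM (left) and in FPKM times transcript length, which is fragments per M mapped fragments (right). Each marker is 1 sample (red, OV-BRCA1; blue, NC) and vertical ticks are group means; the groups of the sum were apart on both measures, with ratios of 2.54 and 1.81.

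The SNORD3A call also depended on single samples. Without OV-BRCA1 replicate 2 or 3 or NC replicate 1 or 3 its limma adjusted p was 0.0520 to 0.0608, with log2 fold changes of 1.37 to 1.62. SNORD3D left the criterion without OV-BRCA1 replicate 2 (log2 fold change 0.93), NC replicate 2 (0.92) or NC replicate 3 (0.98, limma adjusted p = 0.0516). SNORD3C lost its adjusted p without OV-BRCA1 replicate 1 or 2 or NC replicate 1 or 2, and SNORD3B-2 kept it in all 14 refits (6 with a sample left out, 8 with another filter, scale or model).

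Among other RNAs that carry no poly(A) tail, 8 of 13 tested genes rose and none fell, where 16.4% of all genes tested rose and 18.9% fell, and their median log2 fold change was 1.35 (limma; 12 of the 13 had a positive sign). VTRNA1-3 and RNU5A-1 reached 0.5 FPKM in the OV-BRCA1 group alone, so these 2 of the 8 had to differ. The summed FPKM of all 24 RNAs of the list found in the files, tested or not, was 389 to 496 in the samples with BRCA1 plasmid and 28.2 to 45.5 in those with empty plasmid. RN7SL1, the RNA of the signal recognition particle, was at 173 ± 27.3 and 18.8 ± 3.99 FPKM, and RMRP, the RNA of RNase MRP, at 31.8 ± 2.98 and 0.638 ± 0.645 FPKM (SD, n = 3 each). RN7SK, which holds back the elongation factor P-TEFb, was at 27.8 ± 3.70 and 2.63 ± 1.09 FPKM (SD, n = 3 each). The part of capture or carry-over of such RNAs in the U3 values was not tested. The other 5 genes in the list that holds the U3 genes did not pass the filter. SCARNA17 was at 0 to 1.35 FPKM and SNORD118 (U8) at 0.0774 to 0.164, and SNORD13 and SCARNA2 were listed at 0 in all samples. SNORA73A, which was listed as independently transcribed but lies within SNHG3, was below the threshold in all samples.

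SNORD17, a box C/D member in an intron of SNX5, rose while its host did not pass the test. SNORD17 was at 3.82, 4.42 and 3.06 FPKM in the OV-BRCA1 samples and at 0.887, 1.25 and 0.856 in the NC samples. The lowest OV-BRCA1 sample was above the highest NC sample, and the log2 fold change was 1.25 ± 0.14 (SE; limma adjusted p = 0.0012). SNX5, a sorting nexin, was at 55.3 ± 2.50 and 49.9 ± 5.14 FPKM (SD, n = 3 each; limma adjusted p = 0.206). With 1 fixed transcript length per gene SNX5 passed as well, at a log2 fold change of 0.13 (limma adjusted p = 0.0219). SNORD17 rested on 3.38 to 17.4 estimated fragments per sample and kept the criterion in all 14 refits.

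In RPS12, which encodes a protein of the small ribosomal subunit, 2 of 3 members rose. SNORA33 was at 14.5, 10.1 and 15.3 FPKM against 6.84, 7.87 and 4.80, and SNORD100, a box C/D member, was at 4.20, 4.49 and 4.90 against 2.52, 1.54 and 3.11. The groups of both were apart, and the log2 fold changes were 0.93 ± 0.21 and 0.73 ± 0.18 (SE; limma adjusted p = 0.0157 and 0.023). SNORD101, the third member, had a log2 fold change of 0.04 and overlapping groups. RPS12 itself was at 226 ± 8.25 and 247 ± 16.8 FPKM (SD, n = 3 each; limma adjusted p = 0.168). SNORA33 lost its adjusted p without OV-BRCA1 replicate 1 or 3 (0.0514 and 0.0524, limma), and SNORD100 without any 1 OV-BRCA1 sample or NC replicate 1 (0.0501 to 0.0708, limma). SNORD100 was named, like the other members past an adjusted p alone, after its values had been seen.

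Other risers had hosts that rose too. SNORA73B (U17), an H/ACA RNA that takes part in the processing of the ribosomal RNA precursor, was at 13.9, 14.9 and 14.3 FPKM against 4.75, 7.23 and 8.21, a log2 fold change of 1.02 ± 0.17 (SE; limma adjusted p = 0.00596). Its host SNHG3, a long noncoding gene, rose by 0.70 ± 0.08 (limma adjusted p = 0.00127). SNORA73B kept its adjusted p throughout, but its log2 fold change was 0.99 without OV-BRCA1 replicate 2, 0.82 without NC replicate 1 and 0.98 when scaled to nuclear protein-coding genes, each short of the criterion. SNORA8 in TAF1D was at 17.1, 16.4 and 16.3 FPKM against 6.53, 13.2 and 7.22, and NC replicate 2 stood closest to the OV-BRCA1 samples. SNORA8 rose by 0.88 ± 0.23 and TAF1D by 0.54 ± 0.05 (SE; limma adjusted p = 0.0298 and 0.000667), but SNORA8 lost its adjusted p when any single sample other than NC replicate 2 was left out (0.0742 to 0.0881, limma). SNORD12B in ZFAS1, a long noncoding gene, was at 4.66, 4.95 and 4.30 FPKM against 2.48, 2.87 and 3.04, a log2 fold change of 0.57 ± 0.09 beside 0.79 ± 0.11 for ZFAS1 (SE; limma adjusted p = 0.00525 and 0.00281). SNORD4B in RPL23A was at 6.69, 9.49 and 6.84 FPKM against 3.99, 3.86 and 4.70, a log2 fold change of 0.73 beside 0.20 for RPL23A (limma adjusted p = 0.00998 and 0.00616). SNORD4B lies wholly within an exon of an RPL23A transcript.

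ENSG00000207171 (chr4:168471409-168471539, plus strand), typed as snoRNA and named only by an Rfam accession, was at 3.33, 3.83 and 2.31 FPKM against 0.018, 1.07 and 0.160. The groups were apart, with a log2 fold change of 1.61 ± 0.29 (SE; limma adjusted p = 0.00745), and the criterion held in all 14 refits. It had no host on its strand. It lies within DDX60L on the opposite strand, outside its exons. DDX60L, named after its values had been seen, was at 76.1 ± 4.98 and 11.5 ± 0.598 FPKM (SD, n = 3 each), 2.62 higher on the log2 scale (limma adjusted p = 4.63e-06). The use of strand in counting is not given in the sources used here, so reads from the 2 strands cannot be told apart.

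The only member past the criterion in the lower direction was SNORD14C, a box C/D member in HSPA8 (chr11:123059335-123059422, minus strand). It was at 0.0156, 0.0167 and 0.0251 FPKM in the OV-BRCA1 samples and at 3.16, 3.48 and 3.42 in the NC samples. These OV-BRCA1 values are far below 1 fragment, and the NC values came to at most 5.99 estimated fragments. The log2 fold change was -2.09 ± 0.08 (SE; limma adjusted p = 1.61e-05). HSPA8, the constitutive HSC70 chaperone, rose by 0.36 ± 0.07, from 684 ± 66.6 to 875 ± 24.2 FPKM (SE; SD, n = 3 each; limma adjusted p = 0.0115). SNORD14C lies wholly within exons of HSPA8 transcripts, and it reached 0.5 FPKM in no OV-BRCA1 sample, so it passed the filter through the NC group alone and had to differ. Its neighbours in HSPA8 did not pass: SNORD14D had a log2 fold change of -0.59 and SNORD14E of -0.59 (limma adjusted p = 0.103 and 0.106). SNORD14D passed without NC replicate 3 and SNORD14E without OV-BRCA1 replicate 1 (limma adjusted p = 0.0173 and 0.035).

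The other 6 members that fell did not reach the fold change of 1 on the log2 scale. SNORD59A in ATP5F1B, a subunit gene of the mitochondrial ATP synthase, was at 2.93, 2.97 and 3.41 FPKM against 4.69, 4.63 and 4.49. The groups were apart, with a log2 fold change of -0.45 ± 0.08 (SE; limma adjusted p = 0.00732), kept in all 14 refits, while the log2 fold change of ATP5F1B was -0.05 ± 0.18. SNORA15 in CCT6A was at 0, 0.182 and 0 FPKM against 0.660, 0.529 and 0.817, and it passed the filter through the NC group alone, as did ENSG00000238840, so both had to differ. SNORA59A in VPS13D had a log2 fold change of -0.43, ENSG00000238840 of -0.48, ENSG00000212175 of -0.31 and ENSG00000252230 of -0.96 (limma adjusted p = 0.0411, 0.0376, 0.0418 and 0.0458). ENSG00000252230 was at 1.19, 0.857 and 0 FPKM against 2.52, 1.75 and 2.13. These 4 kept an adjusted p below 0.05 in 5 or 6 of the 14 refits. Every OV-BRCA1 sample except replicate 1, and every NC sample, ended the call of SNORA59A when left out.

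Of the 10 most abundant members, only SNORD3A and SNORA8 passed the test. SNORD58B in RPL17 was at 32.6, 31.4 and 37.2 FPKM against 36.1, 35.5 and 35.9. SNORA67 in EIF4A1 was at 27.8, 24.1 and 29.2 FPKM against 27.1, 29.1 and 28.0, and SNORA4 in EIF4A2 at 22.9 ± 2.87 against 20.4 ± 4.01 (SD, n = 3 each). The groups of all 3 overlapped. SNORD32A in RPL13A (log2 fold change -0.01), SNORA64 in RPS2 (0.24) and SNORA63B in EIF4A2 (-0.19) did not pass either (limma adjusted p = 0.957, 0.088 and 0.512). Each of these 6 lies wholly within an exon of a host transcript.

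Hosts were next set beside their members. Of the 78 hosts that were tested, 22 rose and 12 fell by adjusted p (43.6%, where 35.3% of all genes tested did so), and none was past the criterion (limma; 651 of the 16321 genes were). The median log2 fold change was 0.39 over the 17 long noncoding hosts tested, 0.05 over 46 protein-coding hosts other than ribosomal protein genes and -0.03 over 15 ribosomal protein genes. Of the 40 members whose host rose, 4 rose, 1 fell and 35 did not pass. The 1 that fell was SNORD14C, which passed the filter through the NC group alone, so its direction was set by the filter. Of the 17 members whose host fell, none rose or fell (limma; 1 had an unadjusted p below 0.05, and 5 had a positive sign). The median log2 fold change of the 40 members was 0.12, beside 0.49 for their hosts. Over the 110 members with a tested host, Pearson's r of the 2 log2 fold changes was 0.21 and Spearman's rho 0.26, and the signs were equal in 65 pairs. Members of 1 host share a point on that axis, and the pair shares its libraries. The 110 include SNORD14C and SNORA15, which passed the filter through the NC group alone and so had to lie lower. Among the 23 pairs with at least 10 estimated fragments, which include neither of these, r was 0.34.

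**Figure D3:**
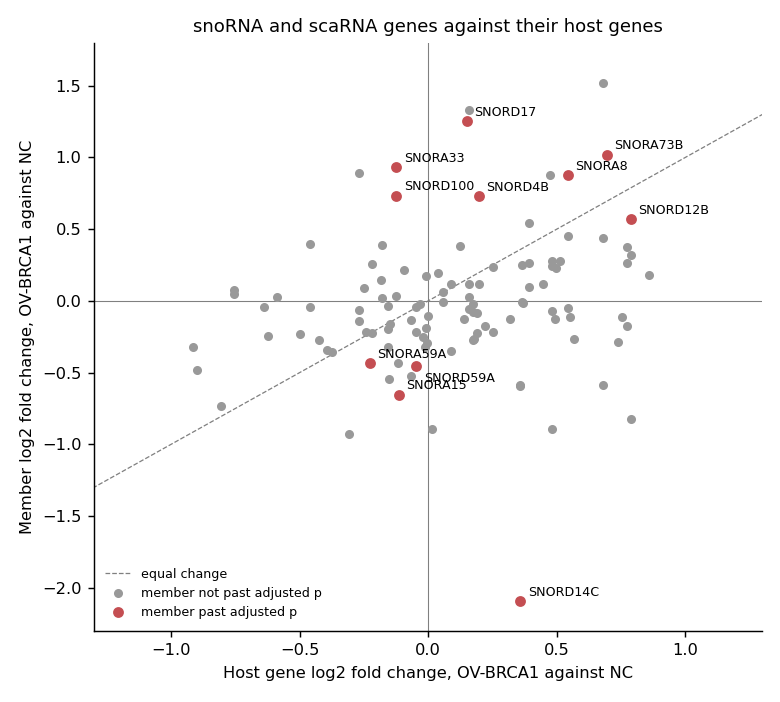
Log2 fold change of 110 members (vertical) against that of their host gene (horizontal), OV-BRCA1 against NC. Red points are members past an adjusted p of 0.05, grey points the others, and the dashed line marks equal change; SNORD17, SNORA33 and SNORD100 lay above it beside hosts near 0, and SNORD14C, which passed the filter through the NC group alone, lay far below it.

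Per sample, the log2 value of the host was subtracted from that of the member. The groups of this difference were apart for 24 of the 110 members, 11 with the member higher against its host in the OV-BRCA1 group and 13 with it lower, where 26.0% of 808 other genes nested in a gene on the same strand were apart. The 13 include SNORD14C and SNORA15, which passed the filter through the NC group alone and had to lie lower. The median difference between the groups was -0.13 over the members and -0.06 over the other nested genes. A limma fit of the difference over all 918 nested pairs, chosen after seeing the data, called 1 member higher against its host (SNORD17) and 1 lower (SNORD14C), where 4.33% of the other nested genes were called (2.23% higher and 2.1% lower). SNORD17 minus SNX5 was 1.10 ± 0.23 higher in the OV-BRCA1 group on the log2 scale (SE; limma adjusted p = 0.048), and SNORD14C minus HSPA8 was -2.45 ± 0.17 (SE). SNORD14C entered through the NC group alone, so the filter set the direction of its difference, and its call carries no test. SNORA33 minus RPS12 was 1.06 ± 0.26 and SCARNA4 minus KHDC4 was 0.83 ± 0.19, and both missed the threshold (limma adjusted p = 0.08 and 0.0686). So did SNORD19 minus GNL3, at -0.95 ± 0.22 (SE; limma adjusted p = 0.0676). SCARNA4 was at 0.674, 0.790 and 0.705 FPKM against 0.659, 0.643 and 0.610, while KHDC4 fell by 0.75 on the log2 scale (limma adjusted p = 0.00522). SCARNA4 was named after its values had been seen.

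Hosts with several members allow a comparison within 1 primary transcript. There were 9 hosts with at least 3 members. GNL3, a nucleolar GTPase, rose by 0.77 ± 0.05 (SE), at 76.7, 82.9 and 81.6 FPKM against 46.8, 47.8 and 45.4, and none of its members passed, with log2 fold changes of 0.37 for SNORD19C, 0.26 for SNORD69 and -0.18 for SNORD19. Without OV-BRCA1 replicate 1 SNORD69 passed, at 0.48 (limma adjusted p = 0.0335). SNHG1 rose by 0.48 ± 0.14, and its 4 members ran from -0.89 ± 1.22 for SNORD22 (SE; limma adjusted p = 0.609) to 0.28 for SNORD26. ZFAS1 rose by 0.79 ± 0.11, with SNORD12B at 0.57, SNORD12C at 0.32 and SNORD12 at -0.82 ± 0.61 (SE; limma adjusted p = 0.342 for SNORD12). SNHG17 rose by 0.39 ± 0.06, with SNORA71C at 0.54, SNORA71B at 0.26 and SNORA71A at 0.10. TAF1D carried SNORA8 (0.88), SNORA25 (0.45) and SNORD6 (-0.05). EEF1B2, an elongation factor subunit gene, fell by 0.16 on the log2 scale, and its 3 members ran from -0.32 to -0.04. SNORD51 and snoZ196 of that host overlap on the same strand, so their reads cannot be told apart.

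**Figure D4:**
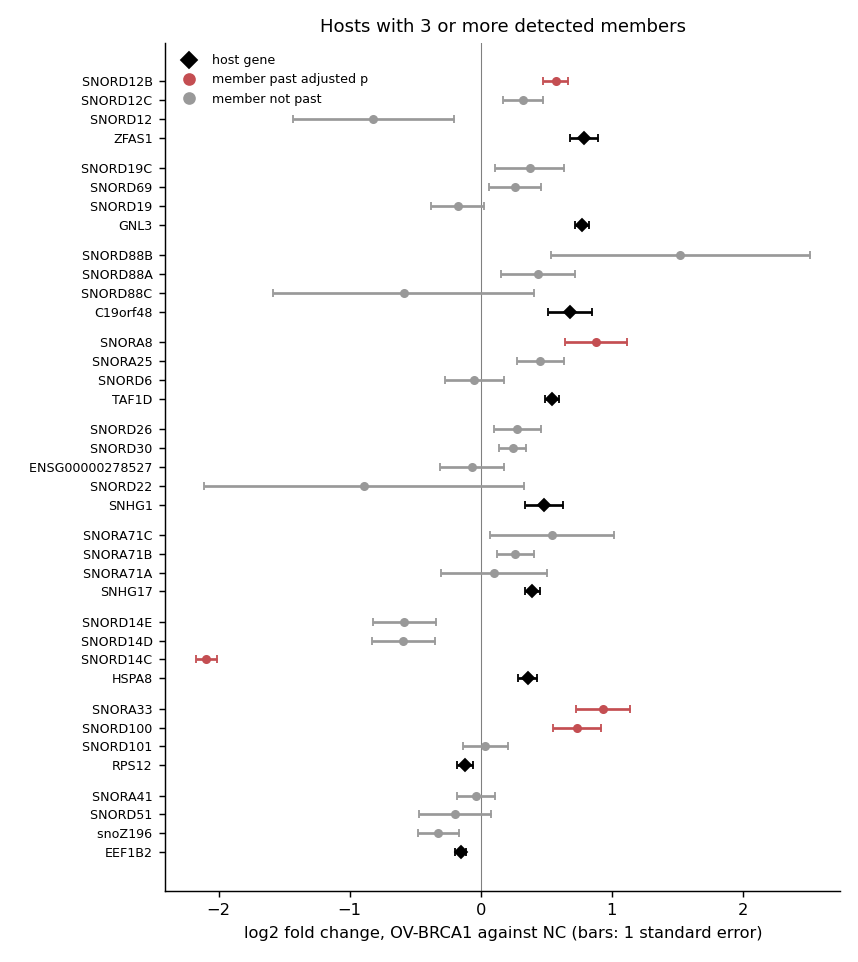
Log2 fold change, OV-BRCA1 against NC, of the 9 hosts with at least 3 members (black diamonds) and of their members (circles, red where past an adjusted p of 0.05); bars are 1 standard error. Bars of the members were wider than those of the hosts in most cases, and SNORD22, SNORD88B, SNORD88C and SNORD12 had the widest.

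Several members that lie wholly within a host exon varied greatly between samples of 1 group. In 27 members (19.7%) the lowest sample of a group was below 10% of the highest of that group, where 2.22% of all genes tested and 2.06% of the 8408 genes in the members' central range were so. They made up 11 of the 37 members wholly within an exon on their strand and 15 of the 83 with no base in one. This count was chosen after seeing the data, and the 8408 genes were not matched to the members in length or fragments. SNORD22 in SNHG1 was at 1.22, 0.221 and 0.762 FPKM in the OV-BRCA1 samples and at 0.0539, 24.3 and 0.144 in the NC samples, so that 1 NC sample held nearly all of it. SNORD10 in EIF4A1 was at 18.7, 25.1 and 18.6 FPKM against 28.0, 18.9 and 0.0914. The transcripts of EIF4A1 that contain SNORD10 were at 8.76, 8.57 and 9.12 FPKM against 10.1, 9.09 and 13.3, with the highest value in the NC sample where SNORD10 was lowest. Members differed in this. The RPL7A transcripts that contain SNORD36B (10.9 FPKM) and the SNHG9 transcripts that contain SNORA78 (2.88 FPKM) were also highest in the sample where the member was lowest, and those of SNORD22 were lowest (5.94 FPKM) where it was highest. Those of SNORD87 were at 4.73 FPKM in its lowest sample, near their own lowest value of 4.66. SNORD88B in C19orf48 was at 13.1, 19.6 and 17.4 FPKM against 11.4, 15.3 and 0.116, and its paralog SNORD88C, 87.9% identical to it, at 0.135, 0.124 and 7.33 against 4.23, 0.102 and 5.26. The C19orf48 transcripts that contain SNORD88C were at their 2 highest values (4.40 and 4.52 FPKM) and at their lowest (1.42 FPKM) in the 3 samples where it was near 0. SNORD36B in RPL7A and SNORD87 in SNHG6 each had 1 sample near 0.1 FPKM and 5 between 2.62 and 8.66. None of these 7 members passed the test, and their standard errors were 0.74 to 1.22 on the log2 scale, against a median of 0.22 over all members. The hosts' own transcripts held reads in all samples. Whether fragments were given to the snoRNA in one sample and to the host in another was not tested. SNORD36B, SNORD87 and SNORA78 were picked with their values known.

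**Figure D5:**
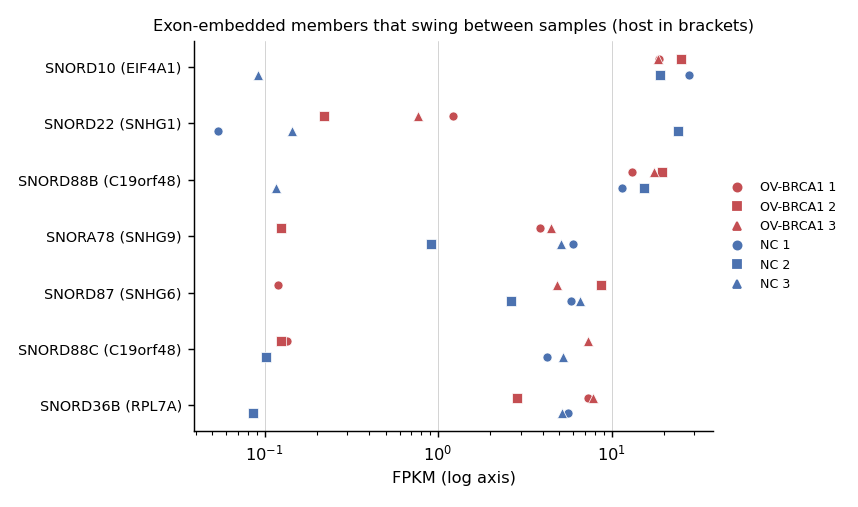
FPKM by sample (log axis) of 7 members that lie wholly within an exon of their host (in brackets) and whose lowest sample was below 10% of the highest in 1 or both groups. Red markers are OV-BRCA1 and blue are NC samples, with circle, square and triangle for replicates 1, 2 and 3; the low value fell in different samples for different genes, and in both groups.

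The proteins that hold and process these RNAs were tested by lists of known members, to be read against the 35.3% of all genes tested that rose or fell. Box C/D RNAs are bound by fibrillarin (FBL, the methyltransferase), NOP56, NOP58 and SNU13. Of these 4, NOP58 rose from 53.0 ± 2.28 to 78.2 ± 3.33 FPKM and NOP56 from 103 ± 0.532 to 129 ± 8.30 (SD, n = 3 each; limma adjusted p = 0.000828 and 0.00633), and FBL and SNU13 did not pass. Box H/ACA RNAs are bound by dyskerin (DKC1, the pseudouridine synthase), NOP10, NHP2 and GAR1. Of these 4, DKC1 rose from 14.9 ± 2.09 to 20.2 ± 1.94 FPKM (SD, n = 3 each; limma adjusted p = 0.0346) and the other 3 did not pass.

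Of 10 tested assembly factors 4 rose and 1 fell, with RPAP3 at a log2 fold change of 0.42 and PIH1D1, its partner in the R2TP complex, at -0.39 (limma adjusted p = 0.00299 and 0.0351). Of 14 tested genes of processing and transport 5 rose and 2 fell. NOLC1 (Nopp140), a nucleolar and Cajal body protein that binds both classes, rose by 0.69 ± 0.07 (SE), and DBR1, which opens the intron lariat from which snoRNAs are trimmed, by 0.47. WRAP53, which brings scaRNAs to Cajal bodies, fell by 0.25, and PARN, a poly(A) ribonuclease, fell by 0.27. Of 16 tested exosome genes 2 rose (EXOSC4 and DIS3) and 1 fell (EXOSC10). None of the protein genes in these lists was past the criterion (limma; the largest log2 fold change was 0.69).

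A list of host genes, long noncoding except for the protein-coding TAF1D, had 10 of 23 tested genes higher and 2 lower by adjusted p. Of all genes tested, 16.4% were higher and 18.9% lower. The list had a median log2 fold change of 0.39. GAS5, a host of many box C/D genes, rose from 41.5 ± 2.96 to 81.7 ± 0.513 FPKM, SNHG15 by 0.84 and SNHG12 by 0.75 on the log2 scale. SNHG19 fell from 29.7 ± 0.415 to 15.5 ± 2.85 FPKM and SNHG9 from 90.6 ± 8.88 to 48.0 ± 4.79 (SD, n = 3 each; limma adjusted p = 0.00276 and 0.00116). SNORA78, the member in SNHG9, had a log2 fold change of -0.48 ± 0.75 and overlapping groups.

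As a check of the labels, BRCA1 was at 35.7, 40.8 and 34.9 FPKM in the OV-BRCA1 samples and at 20.1, 14.9 and 21.7 in the NC samples, and GAPDH did not differ (log2 fold change 0.03). Mitochondrial genes took 14.8% to 17.2% of the summed FPKM in the OV-BRCA1 samples and 21.0% to 23.2% in the NC samples, so that a smaller part of the total went to other genes in the NC samples. Scaling to nuclear protein-coding genes kept 5 of the 6 members past the criterion. Of 8 epithelial and squamous markers 5 were tested, and KRT8 (316 to 385 FPKM), KRT18 (188 to 256) and EPCAM rose, EPCAM by 1.12 on the log2 scale (limma adjusted p = 0.0282, 0.000976 and 0.00142). CDKN2A was at 122 ± 15.2 and 187 ± 66.5 FPKM (SD, n = 3 each) and passed as lower without NC replicate 3 (log2 fold change -0.82, limma adjusted p = 0.0269), and KRT5 and TP63 were below the filter. Of 8 markers of other cell types 5 were below the filter, with PTPRC and VWF listed at 0, and CD14 and COL1A1 fell. The summed FPKM of all 8 was 11.4 to 13.1 in OV-BRCA1 samples and 25.5 to 27.9 in NC samples, and its part in the results was not tested.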

How the data were processed

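RNA of SiHa cells was sequenced after transfection with GV230-BRCA1 (3 samples) or GV230 (3 samples). The authors made and deposited FPKM values per transcript for 199167 transcripts of 58174 genes. The submitters' processing notes name FastQC, HISAT2 and hg38, and the tool that made the FPKM, the annotation and the use of strand are not given in the sources used here. The files of the samples and of the series hold the same values.

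Transcript values were summed per gene. Types, names and positions came from GENCODE 29 (GRCh38), which held 198868 of the transcripts, including all 146 transcripts of the members at the same position. Of 29 members with an Rfam accession as name, 6 were renamed from a table of gene names and 23 are given by identifier. Genes at 0.5 FPKM or more in 3 or more samples were tested with limma 3.58.1 (R 4.3.3, with trend) on log2(FPKM + 1), with Benjamini-Hochberg adjustment, after the model had been tested on simulated data. Single values were compared with exact two-sided permutation tests. The files used here hold no counts. Depth was estimated from low FPKM values of 14216 genes with 1 transcript of 600 to 5000 bases. Of the 2096 to 2424 low values per sample, 30.3% to 36.7% fell within 0.1 of whole fragments. Evenly spread values would give part of that share. Depths and fragment numbers are therefore estimates and cover counting error only. The study also lists total reads per sample, which are not mapped fragments and were not used for the estimate. Host genes span the member on its strand. Where several did, the one with the highest mean FPKM was taken.

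Named were members past the criterion, the 10 most abundant, the 5 on either side of the threshold, members of the hosts with the most members, genes of the lists, BRCA1 and GAPDH. Because hosts with 3 members tied, all were shown, and any other gene was chosen for naming after its values were known. The members and lists were chosen with earlier results of these data known. The alternatives were another pseudocount, 2 other filters, 2 scalings, no trend, each sample left out, the replicate number as block, other host and member choices and, chosen after seeing the data, 1 transcript length per gene, at least 10 estimated fragments and a fit over nested pairs. Python 3.11.15 with pandas 2.3.3, scipy 1.17.1, biopython 1.88 and matplotlib 3.10.9 was used for the rest.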

Additional observations from a re-analysis of the deposited data

How the results depend on the processing

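The counts below are of genes past the criterion unless said otherwise. For the members, by adjusted p alone the 5 higher became 12 and the 1 lower became 7. Lower members past the criterion were 2 with a pseudocount of 0.1, and 0 without members overlapping an exon of another gene, 0 among members at 0.5 FPKM in at least 1 sample of each group and 0 with at least 10 estimated fragments on average (chosen after seeing the data). With that last limit 3 members were higher, and by adjusted p alone 7 were higher and 0 lower. Lower members by adjusted p alone were 4 with a pseudocount of 0.1, 3 with no filter on low values and 4 among members at 0.5 FPKM in each group. For the hosts, adjusted p alone gave 22 higher and 12 lower, a pseudocount of 0.1 gave 1 higher and 1 fixed transcript length 1 lower, against 0 and 0. For the lists of proteins and long noncoding hosts, adjusted p alone gave 24 higher and 6 lower, against 0 and 0. Leaving out each sample gave 3 to 6 higher and 1 to 3 lower members past the criterion, and 8 to 11 higher and 4 to 8 lower members by adjusted p. It gave 0 to 1 higher and 0 to 1 lower hosts past the criterion, 15 to 18 higher and 11 to 12 lower hosts by adjusted p, and in the lists 0 to 1 higher and 0 to 1 lower past the criterion and 19 to 20 higher and 4 to 6 lower by adjusted p. Members apart from their host were 13 to 19 higher and 17 to 23 lower, which fewer samples make more frequent by construction, and the median difference was -0.160 to -0.0660. Of 2336 values of 168 named genes that were tested, 2168 kept their side of the threshold, 141 lost significance, 27 gained it and 0 reversed. Among these named genes, the gains fell on 9 members, each in 1 refit, and on 10 other genes. Members outside that set gained a call too. SNORA31 did so with nuclear protein-coding scaling, without OV-BRCA1 replicate 1, with 1 transcript length and without trend. SNORD124 did so without NC replicate 2 and with the replicate block. SNORD17 and ENSG00000207171 kept the criterion in all 14 refits. SNORD14C did so too, but it entered through the NC group alone, so that its call says nothing about stability. The cause of the other changes was not tested.

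The replicate numbers did not pair the samples, since the deviations of same-numbered samples had correlations of -0.0244, 0.0250 and 0.0136. With the replicate block, 5 members were higher and 1 lower past the criterion, all 6 shared with the fit without it, and by adjusted p 16 were called, of which 13 were shared. SNORA33 (adjusted p = 0.0515, limma), SNORD3C (0.0731), SNORA59A (0.0589), ENSG00000212175 (0.102), ENSG00000238840 (0.0547) and ENSG00000252230 (0.0531) lost significance.

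Depth limits most members. Of 137, 109 rest on fewer than 10 estimated fragments, and embedded or near-identical genes can exchange reads.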

Other observations

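By gene type, the share of tested genes past an adjusted p of 0.05 (limma, Benjamini-Hochberg) was 14.3% of 133 snoRNA genes, 16.9% of 118 miRNA genes, 17.5% of 80 genes of other small RNAs (misc_RNA), 23.9% of 88 small nuclear RNA genes, 37.0% of 721 long intergenic RNA genes and 38.0% of 12333 protein-coding genes. Of the 133 snoRNA genes 12 rose and 7 fell, of the small nuclear RNA genes 16 rose and 5 fell, and of the miRNA genes 5 rose and 15 fell. These counts were chosen after seeing the data and give no test between the types.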
